A study of Caenorhabditis elegans with 8 samples.

Results

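The aspartyl proteases (asp genes) and the cathepsin B-like cysteine proteases (cpr genes) of Caenorhabditis elegans were followed in RNA from sorted cells of wild-type and skn-1gf animals. Members were all genes whose symbol is asp or cpr followed by a number, which gave 26 of the 46928 genes counted, 18 asp and 8 cpr. All are annotated as protein-coding except asp-11, a pseudogene. There were 4 wild-type (N2) libraries and 4 skn-1gf libraries, made from L4 larvae. All 8 came from animals carrying daf-7p::gfp, in which the promoter of a TGF-beta ligand gene marks the ASI pair of chemosensory neurons. The skn-1gf animals also carried lax188, a gain-of-function allele of skn-1, which encodes a transcription factor that activates detoxification genes. Each population was a large synchronised pool of animals dissociated with a reducing detergent buffer and Pronase, and cells were then sorted. Replicates are named biological in the labels, without stating what each came from, so p-values measure the spread between these libraries.

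Aspartyl proteases of this type are cathepsin D relatives that cut proteins with a pair of catalytic aspartates and work best at acid pH. Cathepsin B-like enzymes use a catalytic cysteine and also work in acid compartments. In worms such enzymes are made in large amounts by the intestine, where they serve digestion in the gut lumen and protein turnover in lysosomes. Some also act elsewhere, as do the lysosomal enzymes ASP-3 and ASP-4, which are known to be needed for the necrotic death of injured neurons.

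Depth ran from 2976889 to 10740970 gene counts per library. Wild-type replicate 2 stood apart from the other libraries, with counts in 11909 genes where the others had 14248 to 20394, and with protein-coding genes at 63.0% of gene counts where the others had 75.8 to 91.2%. The labels name the cells as neurons, and levels here are in CPM, counts scaled to a library size corrected by TMM and given per 1000000. The 7 ASI markers together reached 10.2 to 25.02 CPM in the wild-type libraries and 10.8 to 167 CPM in the skn-1gf libraries, with str-2 at 0 in all but skn-1gf replicate 4 and str-3 at 0 in all but wild-type replicate 2. Over all 8 libraries, 13 pan-neuronal markers summed to 266 to 2092 CPM, 11 pharynx markers to 109.1 to 2752 CPM, 7 hypodermis markers to 5.92 to 798.5 CPM, 15 intestine markers to 1652 to 21730 CPM, 8 body wall muscle markers to 4078 to 18310 CPM and 11 germline and oocyte markers to 3815 to 6509 CPM.

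Most of the family's genes lie on chromosome V, and some of them are neighbours there. Of the 26 members, 21 are on chromosome V (14 asp and 7 cpr), which holds 4995 of the 19983 protein-coding genes, 4 are on X and asp-9 is on IV. Neighbouring groups are asp-6, asp-12, asp-5 and the pseudogene asp-11; asp-1, asp-15, asp-16 and asp-17; asp-7 and asp-8; asp-18 and asp-19; and cpr-5 and cpr-8. Multiply aligned reads went to no gene, which leaves the values of near-identical neighbours uncertain. In the annotation of the assembly WBcel235, exons of asp-4 overlap the opposite-strand gene R12H7.4 and those of asp-2 overlap inx-10, and the strand setting of the counting is not given in the sources used here. R12H7.4 had at most 18 counts in any library, while inx-10 had 0 to 167.

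Of the 26 members, 15 passed the low-count filter, 9 asp and 6 cpr, and 11 did not. The 11 together held 265 counts. The largest totals among them were 84 for cpr-8, of which 76 were in wild-type replicate 2 (11.96 CPM), 69 for asp-8 and 54 for asp-17. The pseudogene asp-11 and asp-9 had 20 counts each. The remaining ones were nearly silent, with 8 counts for asp-18, 4 for asp-15, 3 for asp-16, 2 for cpr-2 and 1 for asp-7. No library had a count of asp-19, which allows up to 0.0523 CPM over all libraries (3 counts, counting error only). Neighbours could thus differ widely, since asp-1 had 32663 counts in the same cluster as asp-15 and asp-16.

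Among the members that passed, the level per kilobase of exon was highest for asp-1 and next for asp-6 in all 8 libraries. ASP-1 is a cathepsin D-like protease known from intestinal cells. Its mean over the libraries was 619 CPM per kb (73.2 to 1485), and that of asp-6 was 337 CPM per kb (36.6 to 693). Then followed asp-5 (119.9 CPM per kb), asp-3 (106), cpr-9 (99.1), cpr-1 (81.6), cpr-4 (74.7), asp-2 (63.8), cpr-6 (63.2) and asp-4 (63.0). The order within this middle group was not fixed: asp-5 lay above asp-3 in 6 of 8 libraries, asp-3 above cpr-9 in 3, and cpr-6 above asp-4 in 2. Lower levels were found for cpr-5 (35.6), asp-14 (35.4), asp-13 (12.3), asp-12 (3.08) and cpr-3 (1.49 CPM per kb).

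Most tested genes of both families were high and low in the same libraries, and these libraries did not follow genotype. For asp-1 the wild-type replicates 1 to 4 were at 318, 1377, 270.3 and 259.9 CPM, and the skn-1gf replicates 1 to 4 at 717, 87.2, 1768 and 1103 CPM. The highest wild-type library was thus above all but one skn-1gf library, and the lowest library of all was skn-1gf replicate 2. For asp-6 the values were 219.5, 884, 266 and 185 CPM in wild-type libraries and 573, 46.7, 863 and 405 CPM in skn-1gf. The order was nearly the same, with wild-type replicate 2 now the highest.

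**Figure D1:**
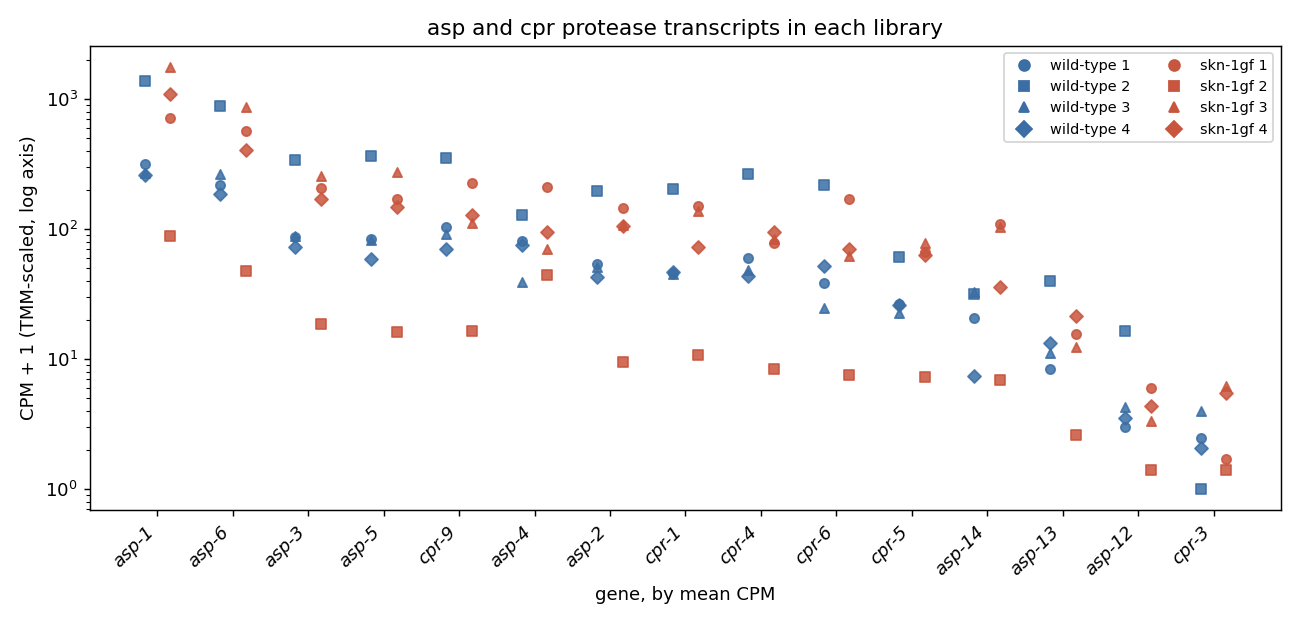
CPM + 1 (log axis) of the 15 members that passed the low-count filter, in wild-type (blue) and skn-1gf (red) libraries, with 1 point per library and the replicate number as the marker shape. The square markers, replicate 2 of each genotype, lie at the top of wild type and at the bottom of skn-1gf for most genes; asp-1 has 1377 CPM in the former and 87.2 CPM in the latter.

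The same shape recurred down the list. In skn-1gf replicate 2, 13 of the 15 members had their lowest value of all 8 libraries, where 17.5% of all tested genes did. In wild-type replicate 2, 10 of the 15 had their highest value, where 24.7% of all tested genes did. For 10 of the 15 the 4 highest libraries were wild-type replicate 2 and skn-1gf replicates 1, 3 and 4, a set that was on top in 4.25% of tested genes. These sets were chosen after the values were seen, and the members share the same 8 libraries, so they are not independent of each other. The same 4 libraries also had the largest shares of ribosomal RNA, at 32.8% of gene counts in wild-type replicate 2 and 18.8, 15.8 and 21.8% in skn-1gf replicates 1, 3 and 4. The share was 8.62 to 11.6% in the other wild-type libraries and lowest, 6.9%, in skn-1gf replicate 2. Its part in the protease levels was not tested.

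The sums show the size of these shifts. The 18 asp genes summed to 872, 3372, 843 and 713 CPM in wild-type replicates 1 to 4 and to 2157, 227, 3462 and 2081 CPM in skn-1gf replicates 1 to 4. The 8 cpr genes summed to 272, 1109, 232 and 234.6 CPM and to 689, 46.1, 471 and 429 CPM. Wild-type replicates 1, 3 and 4 lay close together, within 1.21-fold for all members summed. Wild-type replicate 2 was 4.25-fold above their mean, where the median gene with a count in every library was at 1.02-fold. The mean of skn-1gf replicates 1, 3 and 4 was 11.3-fold above skn-1gf replicate 2, where the median gene was at 0.949-fold. As a share of protein-coding counts, the members took 0.469% of replicate 2 of wild type, with exact 95% Clopper-Pearson bounds of 0.463 and 0.474%, and 0.0341% of replicate 2 of skn-1gf, with bounds of 0.0327 and 0.0357%, against 0.123 to 0.158% and 0.298 to 0.458% in the other wild-type and skn-1gf libraries. Intervals cover counting error only.

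The summed intestine markers were high and low in the same libraries as the members. Their sum was 2.87-fold above the other wild-type libraries in wild-type replicate 2, and the mean of the other skn-1gf libraries was 11.8-fold above skn-1gf replicate 2. Without the yolk protein (vit) genes, which make up most of that sum, these ratios were 2.05 and 13.2. The order then differed from that of most members, with wild-type replicate 3 (438 CPM) above skn-1gf replicates 1 (364 CPM) and 4 (390 CPM). Single markers did not all follow the sums. In wild-type replicate 2, 8 of the 15 were at their highest wild-type level and 7 were not: elt-2, elt-7, ftn-1, ifb-2, ifd-2, ifo-1 and mtl-1, of which elt-7, ftn-1 and mtl-1 were at 0 there. In skn-1gf replicate 2, 11 of the 15 were at their lowest skn-1gf level. The sum of the members was 0.130 to 0.260 times the intestine marker sum in the 8 libraries, and 2.45 to 7.82 times that sum without vit genes. Summed germline and oocyte markers were 1.33-fold higher in wild-type replicate 2 than in the other wild-type libraries, with 8 of the 11 at their highest wild-type level there. They did not share the low skn-1gf replicate 2. The other skn-1gf libraries were at 0.781-fold of it, and 0 of the 11 were at their lowest skn-1gf level there. Other tissues moved as well. The sums of hypodermis and body wall muscle markers were highest in wild-type replicate 2 and skn-1gf replicates 1, 3 and 4, like most tested members. Single genes did not all follow these sums. In wild-type replicate 2, 6 of 7 hypodermis, 5 of 8 body wall muscle, 4 of 11 pharynx and 3 of 7 ASI markers were at their highest wild-type level. In skn-1gf replicate 2, 3 of 7, 8 of 8, 7 of 11 and 4 of 7 were at their lowest skn-1gf level. Hypodermis markers were 17.7-fold higher in wild-type replicate 2, sperm markers 3.61-fold and body wall muscle markers 1.82-fold. Pharynx markers were 1.615-fold and ASI markers 1.47-fold higher there, while coelomocyte markers were at 0.933, ciliated neuron markers at 0.833, pan-neuronal markers at 0.526 and glia markers at 0.190 of the other wild-type libraries. The other skn-1gf libraries exceeded skn-1gf replicate 2 on average 18.98-fold in hypodermis markers, 11.6-fold in pharynx markers, 9.55-fold in ASI markers, 6.11-fold in pan-neuronal markers, 5.83-fold in glia markers, 4.04-fold in body wall muscle markers and 2.80-fold in ciliated neuron markers. For sperm and coelomocyte markers the ratios were 1.14 and 0.552. The part of these tissues in the protease levels was not tested, and in bulk RNA fewer cells of a type and less RNA per cell cannot be told apart.

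**Figure D2:**
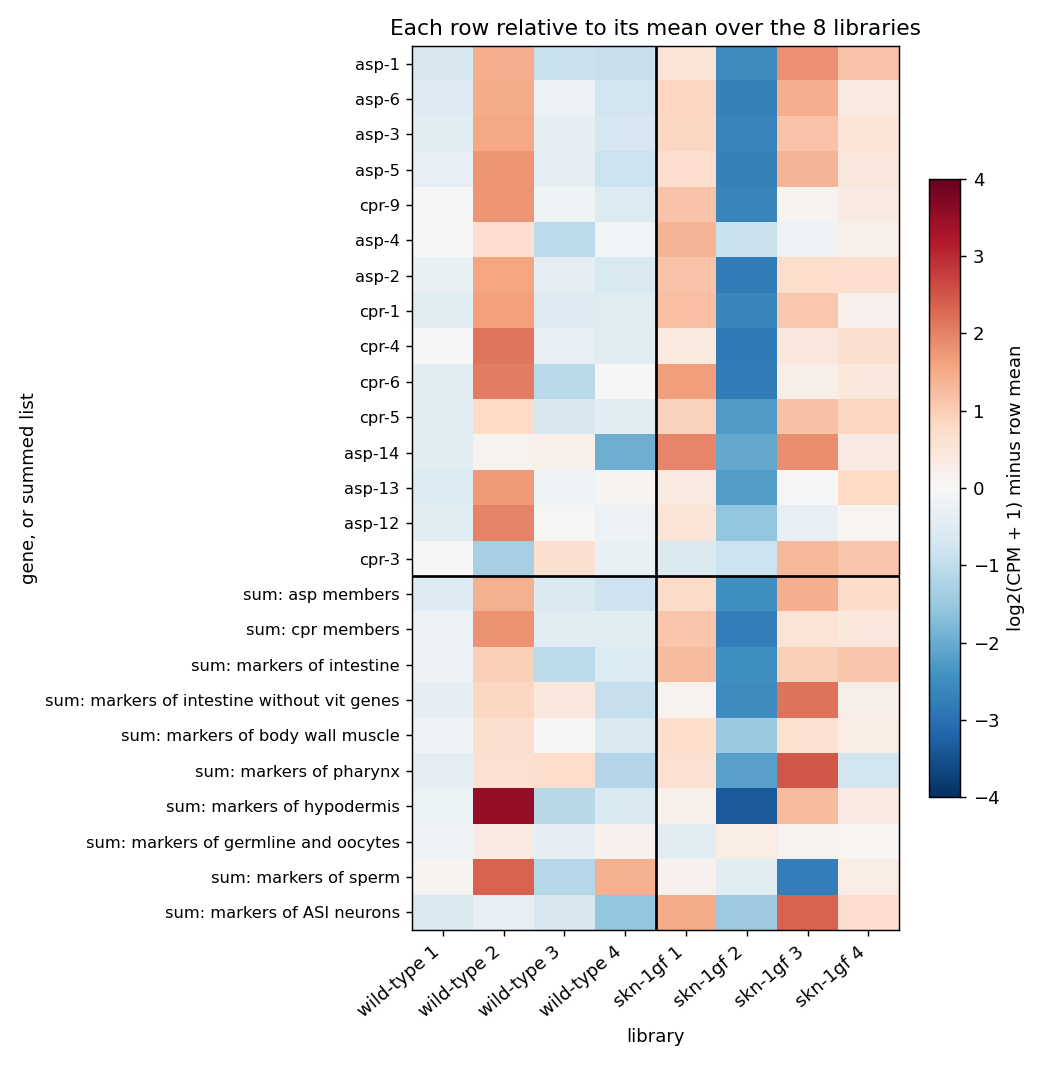
Log2(CPM + 1) of each tested member, and of summed lists, minus the row's mean over the 8 libraries (columns, wild type left of the vertical line). Most rows of the asp and cpr genes (not asp-14 and cpr-3, and asp-4 less strongly) share a high wild-type replicate 2 and a low skn-1gf replicate 2. So do the sums of intestine, hypodermis and body wall muscle markers. The germline and oocyte row, at 3815 to 6509 CPM, stays near its mean.

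Some members departed from the shared shape. ASP-4, a lysosomal cathepsin D-like enzyme, had 80.4, 128, 38.02 and 75.1 CPM in wild-type libraries and 209, 43.2, 68.9 and 93.3 CPM in skn-1gf. Its replicate 2 was still the highest of wild type and the lowest of skn-1gf, but by less than in most members. Its highest library was 5.50 times its lowest, the narrowest range among the 14 members with a count in every library, of which the others ranged 12.2- to 38.2-fold. The median of all 10123 tested genes with a count in every library was 4.36-fold. Accordingly, asp-4 was 19.03% of the asp sum in skn-1gf replicate 2 and 1.99% in skn-1gf replicate 3. Another exception, singled out after its values were seen, was cpr-3, which had 0 counts in wild-type replicate 2 and at most 5.23 CPM in any library. For asp-14 the values were 19.8, 30.5, 31.9 and 6.37 CPM in wild-type libraries and 109, 5.92, 103 and 34.7 CPM in skn-1gf. Here wild-type replicate 2 was not high.

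The shares of asp-1, asp-6, asp-5 and asp-3 in the asp sum varied less between libraries than the sum itself. The asp-3 gene was 9.91 to 10.4% of the asp sum in wild type and 7.43 to 9.58% in skn-1gf. The share of asp-5 was 8.05 to 10.8% and 6.70 to 7.90%, and that of asp-6 was 25.2 to 31.6% and 19.4 to 26.5%. For asp-2 it was 5.80 to 6.06% and 3.11 to 6.71%. Of the 26 shares looked at, 3 did not overlap between genotypes, those of asp-3, asp-5 and asp-12. The 26 include members that did not pass the low-count filter, some of them nearly without counts. For asp-12 the lowest wild-type share was 0.231% and the highest skn-1gf share 0.229%. Its counts were low, with 19 in wild-type replicate 1 and 3, 8 and 9 in skn-1gf replicates 2, 3 and 4. A share within a family has no counterpart over all genes. These 3 were noted after the values were seen and were not tested, and a share falls when another member gains. The share of asp-1 was 32.1 to 40.8% in wild type and was above this in skn-1gf replicates 3 (51.1%) and 4 (53.0%), but not in replicates 1 (33.2%) and 2 (38.4%). Between the families, cpr CPM per asp CPM was 0.312, 0.329, 0.275 and 0.329 in wild type and 0.319, 0.203, 0.136 and 0.206 in skn-1gf, lower in all skn-1gf libraries but replicate 1.

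**Figure D3:**
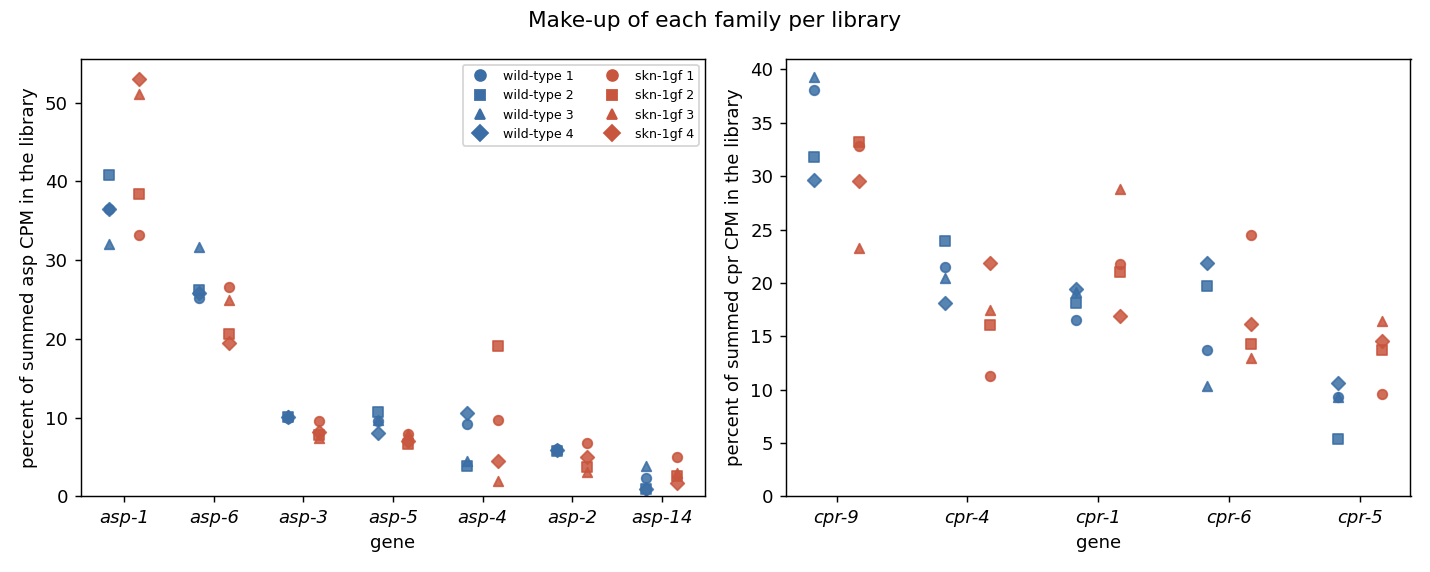
Share of each gene in the summed asp CPM (left) and summed cpr CPM (right) of its library, in percent, with 1 point per library. The asp-3 shares sit between 7.43 and 10.4%, while those of asp-4 spread from 1.99 to 19.03%.

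The comparison of skn-1gf with wild type asks which transcripts differ with skn-1 gain of function. No member passed it: 0 of 15 had an adjusted p under 0.05 in edgeR's quasi-likelihood test, where 0% of the 12734 genes tested did. At an unadjusted p under 0.05 there were also 0 members, against 4.06% of all tested genes (517). After adjustment DESeq2 called 0 members and 6 genes in all (0.0471%), and limma-voom 0 of both; at an unadjusted p under 0.05 they had 1 and 0 members, where 6.45% and 2.91% of all tested genes did. No member's genotype groups were free of overlap, where 2.17% of all tested genes had groups that did not overlap. Log2 fold changes (skn-1gf minus wild type) were positive for 10 of 15 members, against 53.7% of all genes. The median was 0.15 for the 9 asp genes and 0.01 for the 6 cpr genes, beside 0.04 for all genes tested.

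Among the aspartyl proteases the smallest p was that of asp-14, at 22.2 ± 11.8 CPM in wild-type libraries and 63.2 ± 50.97 CPM in skn-1gf (SD, n = 4 each). Its log2 fold change was 1.52 (SE 0.74, 95% interval −0.09 to 3.12), with an unadjusted p of 0.0627 and an adjusted p of 0.999884 in edgeR. Leaving out single libraries gave 1.12 to 1.89. For asp-1 the means were 556 ± 548 and 919 ± 704 CPM, with a log2 fold change of 0.72 (SE 0.75, interval −0.91 to 2.35). Without wild-type replicate 2 it was 1.67, and without skn-1gf replicate 3 it was 0.24. The lysosomal asp-4 had 80.3 ± 36.8 and 103.6 ± 73.2 CPM and a log2 fold change of 0.37 (SE 0.48), which turned to −0.18 without skn-1gf replicate 1.

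For the middle-level asp genes the means were near equal and the spread large. Values of asp-3, the other lysosomal cathepsin D-like enzyme of neuronal necrosis, were 86.4, 339, 87.2 and 71.6 CPM in wild-type libraries and 207, 17.8, 257 and 169 CPM in skn-1gf. Those of asp-5 were 83.5, 363, 82.1 and 57.4 CPM and 169, 15.2, 274 and 146 CPM. In both, every library of skn-1gf except replicate 2 lay above wild-type replicates 1, 3 and 4. For asp-2 the ranges were 42.2 to 195.5 CPM and 8.47 to 145 CPM. The log2 fold changes were 0.15 for asp-3 (SE 0.67), 0.04 for asp-5 (SE 0.72), 0.10 for asp-2 (SE 0.69) and 0.28 for asp-6 (SE 0.70). Each of these 4 changed sign when 1 or more single libraries were left out, with ranges of −0.13 to 0.95, −0.38 to 0.98, −0.17 to 0.87 and −0.17 to 1.03.

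The lowly expressed asp-12 and asp-13 had negative log2 fold changes that rested on wild-type replicate 2. For asp-12 the CPM values were 2.01, 15.4, 3.25 and 2.499 in wild type and 4.95, 0.404, 2.32 and 3.36 in skn-1gf. Its log2 fold change was −1.06 (SE 1.04), and 0.05 without wild-type replicate 2. For asp-13, with 7.42 to 39.03 CPM in wild-type libraries and 1.61 to 20.5 CPM in skn-1gf, it was −0.52 (SE 0.78), and 0.24 without that library.

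Cathepsin B-like genes split evenly, with 3 positive and 3 negative values. The highest, cpr-9, had 103.7, 352, 91.2 and 69.5 CPM in wild-type libraries and 226, 15.3, 109.5 and 127 CPM in skn-1gf, with a log2 fold change of −0.37 (SE 0.67). CPR-4, a secreted cathepsin B-like protein reported as a signal released by irradiated worms, had transcripts at 58.5, 265, 47.5 and 42.4 CPM and at 77.5, 7.397, 82.2 and 93.7 CPM, and the change of cpr-4 was −0.67 on the log2 scale (SE 0.72). Both signs turned without wild-type replicate 2, to 0.39 for cpr-9 and 0.36 for cpr-4.

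The transcript of cpr-5 was at 25.4, 59.5, 21.6 and 24.8 CPM in wild-type libraries and 65.9, 6.32, 77.3 and 62.3 CPM in skn-1gf. All skn-1gf libraries but replicate 2 lay above all wild-type libraries, and the log2 fold change was 0.69 (SE 0.62, interval −0.65 to 2.03). It was 1.11 without wild-type replicate 2. The scarce cpr-3 had 0 to 2.97 CPM and 0.404 to 5.23 CPM, with a log2 fold change of 0.93 (SE 1.30), which ran from 0.35 to 1.61 when replicate 3 of skn-1gf or of wild type was left out. The gut cysteine protease gene cpr-1 ranged from 44.4 to 201 CPM in wild-type libraries and from 9.68 to 150.2 CPM in skn-1gf (0.13, SE 0.70). The values of cpr-6 were 23.9 to 219 CPM and 6.59 to 168.5 CPM (−0.11, SE 0.81). Without wild-type replicate 2 these became 0.99 for both.

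With both libraries numbered 2 left out, 16 members passed the filter (asp-8 in addition) and all 16 had positive log2 fold changes, against 50.1% of the 13090 genes then tested. In 11 of the 16, all 3 skn-1gf libraries lay above all 3 wild-type libraries, where 8.92% of those genes did. The share of ribosomal RNA also lay higher in all 3 skn-1gf libraries (15.8 to 21.8%) than in all 3 wild-type libraries (8.62 to 11.6%), and that of protein-coding genes lower (75.8 to 81.7% and 86.1 to 89.3%). Their part in this difference was not tested. Unadjusted p values under 0.05 with a higher level in skn-1gf were found for 11 members and for 7.44% of those genes, and 0 members and 0% of genes passed after adjustment (edgeR). The median log2 fold change was 1.38 for the asp genes and 1.15 for the cpr genes, beside 0.00 for all genes (0.0011). These 2 libraries hold the highest wild-type and the lowest skn-1gf sum of the members, so leaving them out removes both extremes that oppose this direction. It also narrows the spread within each genotype: the SE of asp-1 fell from 0.75 to 0.35. The SE, intervals and p values of this comparison therefore understate the spread between all the libraries.

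In those 6 libraries the log2 fold change was 2.07 for asp-1 (SE 0.35, interval 1.29 to 2.86), 2.09 for asp-14 (SE 0.60) and 1.51 for cpr-5 (SE 0.23). Adjusted p values in edgeR were 0.182, 0.308 and 0.182. The values of asp-6, asp-5, asp-3, asp-2, cpr-1 and cpr-6 lay between 1.29 and 1.45. Lower ones were 0.93 for asp-4, 0.80 for cpr-9, 0.76 for cpr-4 and 0.46 for asp-12. In the same libraries 13 of 14 tested intestine markers had positive values, with a median of 1.24. The intestine marker sum was 3.25-fold higher in skn-1gf, beside 2.93-fold for the members. Without vit genes the marker sum was 2.60-fold higher and the genotypes overlapped. Wild-type replicate 3 (438 CPM) then lay above skn-1gf replicates 1 (364 CPM) and 4 (390 CPM). Positive values were also found for 10 of 10 pharynx markers (median 1.63), 8 of 8 body wall muscle markers (0.61), 3 of 4 ASI markers (2.54), 3 of 3 glia markers (1.54), 6 of 7 hypodermis markers (0.72), 10 of 13 pan-neuronal markers (0.45), 7 of 9 ciliated neuron markers (0.78) and 3 of 3 coelomocyte markers (0.32). For germline and oocyte markers it was 5 of 11 (−0.02), and for sperm markers 0 of 10 (−0.65). Their part in the difference of the proteases was not tested.

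**Figure D4:**
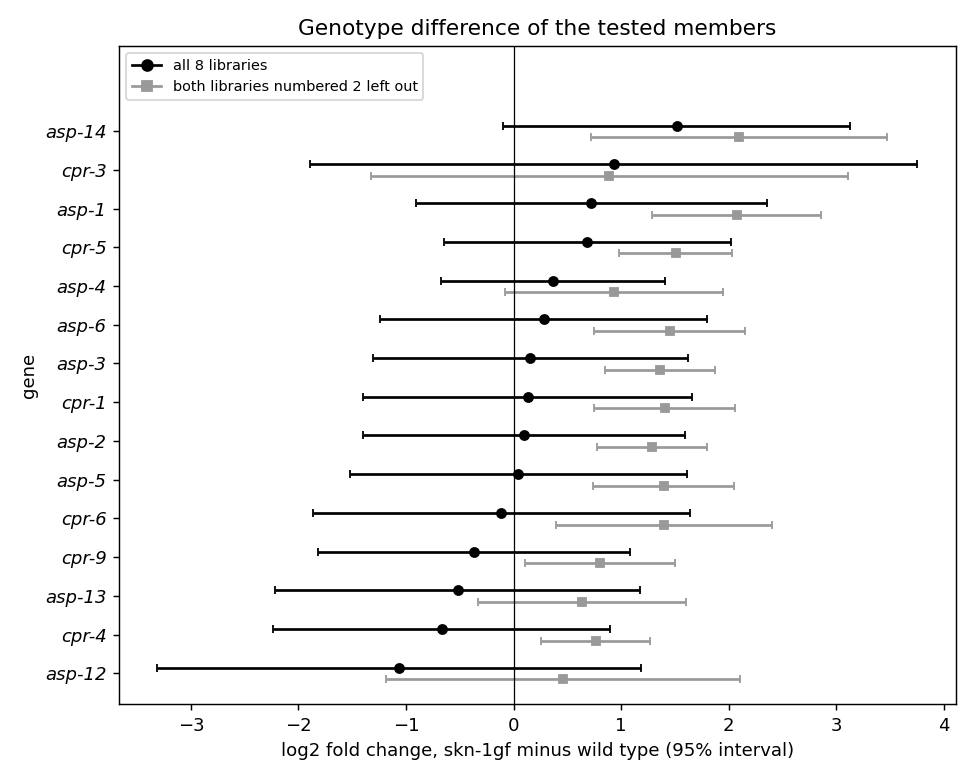
Log2 fold change, skn-1gf minus wild type, with 95% interval for the 15 members tested in all 8 libraries (black circles) and with replicate 2 of each genotype left out (grey squares). All black intervals cross 0. The grey value of asp-1 is 2.07 where the black one is 0.72. The grey intervals understate the spread, since the libraries left out held the extremes of most members.

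Related genes, summed, spanned narrower ranges over the 8 libraries than the members, whose sum ran from 273 to 4481 CPM. The other cathepsins ran from 363 to 1009 CPM and the cystatins from 110.5 to 248 CPM. Of the other cathepsins and cathepsin B-like genes, 8 of 13 were tested, 5 with positive and 3 with negative log2 fold changes and a median of 0.34. The cathepsin L gene cpl-1 was at 499, 724, 228 and 308 CPM in wild-type libraries and 757, 319, 711 and 704 CPM in skn-1gf. Its skn-1gf replicate 2 was not below wild-type replicates 3 and 4, unlike that of the tested cpr genes. Like most tested members, cpl-1 was highest in wild-type replicate 2 and skn-1gf replicates 1, 3 and 4. The sum of the other cathepsins was highest in the same libraries. The log2 fold change of cpl-1 was 0.50 (SE 0.40). F32H5.1 (−1.39, SE 1.03), Y40H7A.10 (−1.25, SE 0.97) and tag-196 (0.50, SE 0.49) complete the 4 smallest p of this list. The cystatin genes cpi-1 and cpi-2, which encode inhibitors of cysteine proteases, gave 0.11 (SE 0.39) and 0.10 (SE 0.30), at 49.1 ± 10.7 against 52.8 ± 26.9 CPM and 111 ± 25.7 against 119 ± 35.9 CPM.

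The sum of the other lysosomal hydrolases rested in large part on a single gene, aman-1, in skn-1gf replicate 2. The 39 genes summed to 1240, 1319, 1074 and 1133 CPM in wild-type libraries and to 2519, 1598, 2235 and 1560 CPM in skn-1gf, without overlap. In skn-1gf replicate 2, aman-1, which encodes a lysosomal alpha-mannosidase, had 1201 CPM of that sum. Without it the other 38 genes summed to 844, 1116, 793 and 687 CPM in the wild-type libraries and to 2077, 397, 1727 and 1124 CPM in the skn-1gf libraries. The groups then overlapped, with skn-1gf replicate 2 the lowest of all libraries and wild-type replicate 2 the highest of wild type but below skn-1gf replicates 1, 3 and 4. Of the 38 genes, 10 were at their highest wild-type level in wild-type replicate 2 and 17 were at 0 there, and 20 were at their lowest skn-1gf level in skn-1gf replicate 2. Leaving aman-1 out was chosen after its values were seen. Of the 30 tested, 23 had positive log2 fold changes, with a median of 0.43, and 4 had an unadjusted p under 0.05, where 53.7% and 4.06% of all tested genes did. The 4 became 2 in limma-voom, 1 with the replicate block and 0 with total-count scaling, where 2.91%, 5.32% and 3.57% of all tested genes had such a p. None passed after adjustment in edgeR, DESeq2 or limma-voom. These 4 were hex-1, a hexosaminidase (41.3 ± 7.24 against 71.1 ± 14.8 CPM), ctsa-1.1, a cathepsin A-like carboxypeptidase (233 ± 45.4 against 439 ± 196.3 CPM), aman-1 (332 ± 110 against 647 ± 371 CPM) and pcp-3, a prolyl carboxypeptidase-like gene (8.93 ± 4.29 against 28.5 ± 20.5 CPM). Among the 4, hex-1 alone had no overlap between genotypes. With both libraries numbered 2 left out, 27 of 31 hydrolases had positive values (median 0.94) and 7 an unadjusted p under 0.05, where 11.7% of the genes then tested did.

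**Figure D5:**
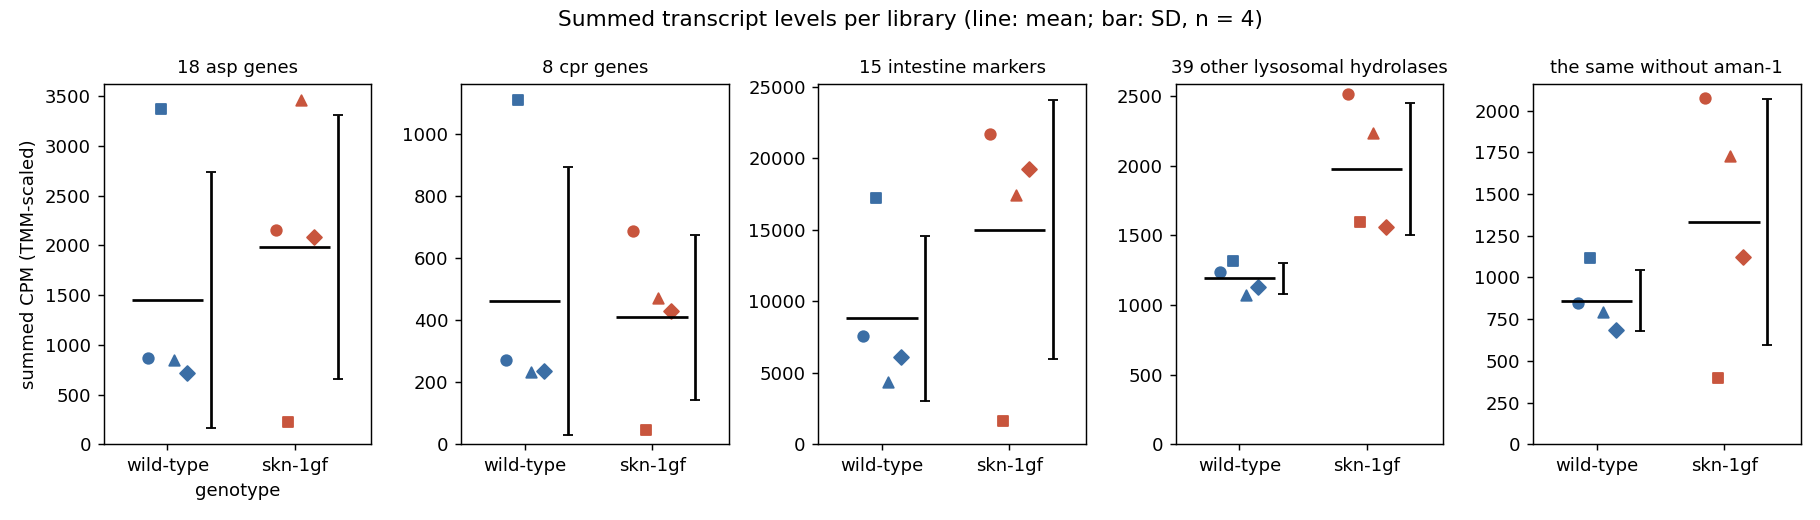
Summed CPM per library of the asp genes, the cpr genes, the intestine markers, and the other lysosomal hydrolases with and without aman-1, by genotype, with the mean (line) and SD (bar, n = 4) and the replicate number as the marker shape (circle 1, square 2, triangle 3, diamond 4). The first 3 panels have a high wild-type square and a low skn-1gf square; with aman-1 left out the hydrolases have them at 1116 and 397 CPM, the former below the other 3 skn-1gf libraries, whereas with it the squares are at 1319 and 1598 CPM.

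No gene for acidification or lysosome structure passed the test. All 21 subunits of the V-ATPase, the proton pump of acid compartments, were tested. They had 15 positive and 6 negative log2 fold changes between −0.43 and 0.44, with a median of 0.18. Like most tested members, their sum was highest in wild-type replicate 2 (3543 CPM) and skn-1gf replicates 1, 3 and 4 (3759, 3869 and 2578 CPM). Their smallest p were those of vha-12 (0.44, SE 0.41), vha-19 (0.31, SE 0.29), vha-13 (0.38, SE 0.36) and vha-17 (0.33, SE 0.35). With both libraries numbered 2 left out, 19 of the 21 were positive (median 0.39), 8 had an unadjusted p under 0.05, where 11.7% of the genes then tested did, and 0 passed after adjustment. Of 24 lysosome membrane and biogenesis genes, 20 were tested, with 12 positive values and a median of 0.12, and 11 of 21 positive (median 0.08) without the libraries numbered 2. Here lmp-1, the gene of a lysosome membrane glycoprotein, was at 77.4, 33.4, 52.4 and 77.6 CPM in wild-type libraries and 127.5, 102, 149 and 135.5 CPM in skn-1gf. Its groups did not overlap, and its log2 fold change of 1.09 (SE 0.31, unadjusted p = 0.00447 in edgeR) did not pass after adjustment. Next in that list were apm-3 (0.71, SE 0.66), hlh-30 (0.55, SE 0.51), a regulator of lysosomal genes, and cup-5 (0.29, SE 0.34).

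Calpains, cytosolic cysteine proteases of which some act together with ASP-3 and ASP-4 in neuronal necrosis, had 5 positive and 3 negative log2 fold changes among 8 of 10 tested, with a median of 0.11. The most abundant, clp-1, was at 200 ± 47.0 and 218.5 ± 83.3 CPM (0.13, SE 0.32). The smallest p were those of clp-3 (−1.22, SE 0.85), clp-4 (0.45, SE 0.43), clp-7 (−0.25, SE 0.31) and clp-9 (0.51, SE 0.91). Of 11 genes listed as regulators of intestinal genes, elt-4, elt-7, end-1 and end-3 did not pass the low-count filter. The 7 tested were elt-2, pqm-1, hlh-30, skn-1, atfs-1, pha-4 and nhr-49, of which hlh-30 is also in the lysosome list. All 7 had positive values, where 53.7% of all tested genes did. Their median was 0.37. Among them elt-2, the gene of the main intestinal GATA factor, had 2.86 ± 1.92 and 4.90 ± 5.05 CPM (0.75, SE 1.11). Its lowest level, 0.157 CPM (1 count), was in wild-type replicate 2, where 10 of the 15 tested members were highest. That library had counts in the fewest genes (11909). Other regulators were pha-4 (1.38, SE 0.87), atfs-1 (0.36, SE 0.29) and skn-1 itself (0.06, SE 0.31). With all 8 libraries and the genotype-only design on filtered genes, no calpain, V-ATPase or regulator gene had an unadjusted p under 0.05 in edgeR, DESeq2 or limma-voom. Of all tested genes, 4.06%, 6.45% and 2.91% did. Of the regulators, 1 had such a p with the replicate block, where 5.32% of all tested genes did. Without the filter 1 regulator had such a p, where 1495 of 24642 genes did. No gene of these lists passed after adjustment in any of them.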

How the data were processed

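The authors deposited 1 table per library with whole-number read counts for each gene, and these were taken unchanged. The tools listed in the submitters' processing notes are the aligner STAR (2.7.6a), the counter HTSeq (2.0.2), R (3.5.2) and DESeq2, with ce10 as the build. No source used here states the annotation release, the strand setting or the handling of duplicates. Of 46928 gene rows, 46919 were matched to symbols of a RefSeq table of WBcel235, which was used for names, biotypes and neighbours. Exon lengths and overlaps came from the Ensembl annotation of WBcel235, and no coordinates were used. The 5 summary lines were left out; reads without a feature were 2.76 to 14.4% of uniquely aligned reads, and multiply aligned reads 12.3 to 30.3% of all.

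The genotype test was run in R 4.3.3 with edgeR 4.0.16, by glmQLFit and glmQLFTest on genotype with TMM. Genes were filtered by filterByExpr with minimum count 10 and minimum total 15. Adjustment was by Benjamini-Hochberg over 12734 genes, with threshold 0.05. The code was tested on simulated data that varied less between libraries than these. That run therefore does not measure the precision of the test here. The SE was derived from the fold change and the quasi-likelihood F. Library sizes were sums over all gene rows. TMM factors ran from 0.658 to 1.29. Alternatives were DESeq2 1.42.0, limma-voom 3.58.1, RLE and total-count scaling, other filters, protein-coding genes only, the replicate number as a block, and libraries left out.

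The members, lists and alternatives were chosen with earlier results of these data known. Values per library are given for the 6 members with the highest mean CPM, the 6 with the smallest p and any without overlap between genotypes, and as ranges for the others. In related lists the 4 smallest p are named. Of the list names, hnf-4 was not matched, and cpr-8 and cpr-9, listed by sequence name among the other cathepsins, were counted as members. The planned motif counts in proteins and promoters were not run, since no sequence was used here.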

Additional observations from a re-analysis of the deposited data

Results flagged for a closer look

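In wild-type replicate 2, 12 of the 15 tested members, and both family sums, lay far above the other 3 wild-type libraries, with a gap that takes more than 0.829 of the group's range. The values there were 1377 CPM for asp-1 (the others 259.9 to 318), 884 CPM for asp-6 (185 to 266), 363 CPM for asp-5 (57.4 to 83.5), 352 CPM for cpr-9 (69.5 to 103.7) and 339 CPM for asp-3 (71.6 to 87.2). They were 265 CPM for cpr-4 (42.4 to 58.5), 219 CPM for cpr-6 (23.9 to 51.4), 201 CPM for cpr-1 (44.4 to 45.5), 195.5 CPM for asp-2 (42.2 to 52.9) and 59.5 CPM for cpr-5 (21.6 to 25.4). The lowest were 39.03 CPM for asp-13 (7.42 to 12.3) and 15.4 CPM for asp-12 (2.01 to 3.25). The sums there were 3372 CPM for the asp genes and 1109 CPM for the cpr genes. The gap was taken on CPM without logs. Chance gives such a gap in about 1 in 20 groups of 4 if values are normally distributed, which CPM values need not be. There were 34 groups examined, all sharing the same 8 libraries. No skn-1gf group had such a gap, but without logs a low library stands out less than a high one. For all members summed, the mean of skn-1gf replicates 1, 3 and 4 was 11.3-fold above skn-1gf replicate 2.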

How the results depend on the processing

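The count of members called stayed at 0 under all 17 alternatives, while the count over all genes was 6 with DESeq2 and 159 without a low-count filter, and 0 otherwise. Unadjusted p values under 0.05 numbered 517 in the edgeR test, 821 with DESeq2 and 1495 without the filter. Members with such a p were 0 of 15, 1 of 15 and 3 of 25, where the genes tested were 12734, 12734 and 24642. Without skn-1gf replicate 2 they were 2 of 16, where 973 of 13726 genes had such a p. There was 1 of 16 without wild-type replicate 2 (391 of 13195 genes) and 1 of 16 without skn-1gf replicate 4 (514 of 13586 genes). In limma-voom the asp and cpr medians turned to −0.18 and −0.25. With single libraries left out the asp median ran from −0.13 to 0.97 and the cpr median from −0.43 to 0.73, the extremes above 0 both without wild-type replicate 2. No member changed sign with another scaling, filter or DESeq2, although total-count scaling moved the median of all genes from 0.04 to −0.12.

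Signs turned in limma-voom for asp-2 (−0.31), asp-3 (−0.18), asp-5 (−0.27), asp-6 (−0.0297) and cpr-1 (−0.18), and with both libraries numbered 2 left out for cpr-6 (1.40), asp-12 (0.46), asp-13 (0.64), cpr-4 (0.76) and cpr-9 (0.80); the cause was not tested. Leaving out single libraries gave ranges of −0.17 to 0.87 for asp-2, −0.13 to 0.95 for asp-3, −0.18 to 0.66 for asp-4, −0.38 to 0.98 for asp-5, −0.17 to 1.03 for asp-6, −1.47 to 0.0454 for asp-12, −0.89 to 0.24 for asp-13, −0.16 to 0.99 for cpr-1, −0.93 to 0.36 for cpr-4, −0.79 to 0.99 for cpr-6 and −0.83 to 0.39 for cpr-9. The signs of asp-1, asp-14, cpr-3 and cpr-5 held in every alternative. 

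With the replicate number as a block, cpr-6 turned to 0.31 and the calls stayed at 0 for members and for all genes. Same-numbered libraries deviated together with r of −0.0327, −0.00158, 0.514 and 0.0646 (across genes), so the numbers were not taken as a pairing. The biological coefficient of variation of 0.707 and a median 95% interval of 1.44 to either side of a log2 fold change set the precision, and a 2-fold difference lies inside that interval. Leaving aman-1 out of the summed hydrolases, chosen after its values were seen, moved the log2 ratio of the genotype means from 0.73 to 0.63 and ended the lack of overlap.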

Other observations

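The gene hrg-7 (CELE_C15C8.3), known as an aspartyl protease-like gene of haem signalling but outside the naming pattern, was looked at after the values of the members were seen. It had 2.54, 13.1, 3.96 and 2.98 CPM in wild-type replicates 1 to 4 and 2.12, 0.807, 4.36 and 2.99 CPM in skn-1gf replicates 1 to 4. Wild-type replicate 2 was again the highest and skn-1gf replicate 2 the lowest library. Its log2 fold change was −1.14 (SE 0.95, adjusted p = 0.999884 in edgeR).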
